A study of Mus musculus with 6 samples.

Results

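The globins and red cell genes are a set of 7 genes chosen by name, which serve as a gauge of blood in a tissue: Hba-a1, Hba-a2, Hbb-bs, Hbb-bt, Alas2, Slc4a1 and Bpgm. All 7 symbols were found among the 35275 genes of the table, and the rule that names them uses no measured value, though it was written with earlier results of these data known. The study sequenced RNA of tongues from mice that drank 4-nitroquinoline 1-oxide (4NQO), a DNA-damaging carcinogen that produces lesions of the oral epithelium, at 100 µg/ml for 20 weeks. One group lacked Aim2, which encodes a sensor of cytosolic DNA (Aim2 KO, 3 libraries), and the other was wild type (3 libraries). Both groups received the carcinogen, and no tongue without it was analysed here. The sources used here do not give the strain, age, sex or knockout allele, nor whether the libraries came from separate animals, so p-values measure only the spread between these libraries.

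Adult haemoglobin is built of alpha chains, encoded in the mouse by Hba-a1 and Hba-a2, and beta chains, encoded by Hbb-bs and Hbb-bt, each holding a haem group. Red cells fill themselves with both while they mature in the bone marrow and spleen, and young red cells carry globin messages into the circulation after they have lost the nucleus. Alas2 is the erythroid form of the enzyme that starts haem synthesis, Slc4a1 encodes band 3, the chloride and bicarbonate exchanger of the red cell membrane, and Bpgm makes 2,3-bisphosphoglycerate, which lowers the affinity of haemoglobin for oxygen. A tongue holds vessels and therefore blood, but is not known as a site of red cell formation in the adult.

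The data were FPKM values (fragments per kilobase of gene, scaled to the total of the library). Whole reads could be recovered from them, and the totals ran from 21959204 to 25369400 reads per library. Aim2 itself had 0.0469, 0.0564 and 0.160 FPKM in the Aim2 KO libraries and 0.201, 0.363 and 0.417 FPKM in the wild type ones, on 3 to 30 reads, so the groups did not overlap. Aim2 KO replicate 1 stood apart from the other 5 libraries in tissue markers. Its mean log2 level of skeletal muscle genes was 8.11 against 8.83 to 9.12, that of endothelial genes was 1.82 against 2.24 to 2.99, and that of squamous epithelial genes was 10.57 against 10.05 to 10.48. In such bulk samples fewer cells of a type and less RNA per cell cannot be told apart.

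The sequences show first how far the copies of each globin can be separated. Hba-a1 (ENSMUSG00000069919) and Hba-a2 (ENSMUSG00000069917) lie on chromosome 11 at 32283511 to 32284465 and 32296489 to 32297298, both on the plus strand. Hbb-bs (ENSMUSG00000052305) and Hbb-bt (ENSMUSG00000073940) lie on chromosome 7 at 103826534 to 103828096 and 103812524 to 103813996, both on the minus strand. These are the deposited coordinates, which are identical to those of GENCODE M21 on GRCm38, and the transcript used for each of the 4 genes has 3 exons. The coding sequences of Hba-a1 and Hba-a2 have 429 bases and differ at 1 of them (C381T, counted from the A of the start codon, Hba-a1 base first). Those of Hbb-bs and Hbb-bt have 444 bases and also differ at 1 (C417T, Hbb-bs base first). The 41 coding bases around each difference are shown 5′ to 3′ from the GENCODE M21 transcripts, with the differing base in capitals, because no other coding base tells the copies apart.
Hba-a1: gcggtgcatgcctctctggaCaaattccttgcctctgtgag
Hba-a2: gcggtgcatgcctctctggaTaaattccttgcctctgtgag
Hbb-bs: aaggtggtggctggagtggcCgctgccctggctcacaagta
Hbb-bt: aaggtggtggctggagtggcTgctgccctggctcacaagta

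Of all windows of 100 bases in the Hba-a2 transcript 74.5% also occur in that of Hba-a1, and 56.5% the other way round. For the beta pair, 54.8% of the windows of Hbb-bt occur in Hbb-bs and 62.6% the other way round. Reads from these stretches have no unique home, and the sources used here do not say how the counting placed them. The split within each pair is therefore uncertain, and sums over a pair are given beside the single genes.

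The 250 bases before the transcription start are shown next for 4 genes (RefSeq, GRCm38.p6), because the globins and Alas2 varied over a wide range between libraries and Bpgm did not. The RefSeq starts lie inside the deposited genes, so each of these 4 windows runs into the gene as deposited. Most of the Hba-a1, Hbb-bs and Bpgm windows and a smaller part of the Alas2 window lie within it. The deposited genes begin at bases 32283511 (Hba-a1), 150547375 (Alas2) and 34476207 (Bpgm), and at 103828096 on the minus strand (Hbb-bs). Capitals mark 4 short motifs on either strand, searched by their letters alone: GATAA (core of GATA factor sites), CACCC (core of sites of Klf1, an erythroid factor), CCAAT (the box of that name, bound by NF-Y) and TATAA (the core of a TATA box). Matches on opposite strands may overlap, as the pair of TATAA matches of Alas2 does. That pair lies at -208 and -207 from the RefSeq start, far from the TATAA matches of Hba-a1 (-27) and Hbb-bs (-29). Each line gives the window and strand before the colon that precedes the sequence.
Hba-a1, chr11:32283422-32283671, plus strand: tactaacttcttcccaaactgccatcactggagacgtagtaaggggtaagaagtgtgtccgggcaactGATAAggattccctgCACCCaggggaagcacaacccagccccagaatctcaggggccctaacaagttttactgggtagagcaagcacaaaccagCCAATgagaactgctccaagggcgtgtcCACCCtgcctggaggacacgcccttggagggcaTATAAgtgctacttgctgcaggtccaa
Hbb-bs, chr7:103827929-103828178, minus strand: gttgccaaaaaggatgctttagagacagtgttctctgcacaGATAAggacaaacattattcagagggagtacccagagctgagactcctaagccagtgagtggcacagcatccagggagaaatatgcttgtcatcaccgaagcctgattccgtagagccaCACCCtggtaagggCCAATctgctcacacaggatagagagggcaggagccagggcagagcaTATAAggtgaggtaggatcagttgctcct
Alas2, chrX:150547167-150547416, plus strand: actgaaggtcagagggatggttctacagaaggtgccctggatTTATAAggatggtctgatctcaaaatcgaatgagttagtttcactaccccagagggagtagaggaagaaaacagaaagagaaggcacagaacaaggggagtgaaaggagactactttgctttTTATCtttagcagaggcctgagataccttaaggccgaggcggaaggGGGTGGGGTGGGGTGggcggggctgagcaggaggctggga
Bpgm, chr6:34476106-34476355, plus strand: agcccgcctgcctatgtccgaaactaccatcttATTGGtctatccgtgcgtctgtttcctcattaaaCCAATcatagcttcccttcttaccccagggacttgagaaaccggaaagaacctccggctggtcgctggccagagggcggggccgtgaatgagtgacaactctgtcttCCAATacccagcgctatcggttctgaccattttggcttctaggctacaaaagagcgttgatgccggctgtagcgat

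All 4 globin promoters held each of the 4 motifs, as did 0.968% of the 32851 mouse promoters of this table. Alone, the GATAA motif occurred in 22.6% of them, the CACCC motif in 52.0%, the CCAAT box in 33.8% and the TATAA motif in 22.8%. The whole RefSeq entries, which add 50 bases after the start, were compared within each pair. Those of Hba-a1 and Hba-a2 were identical over the 297 bases that overlap after a shift of 3 bases, whereas those of Hbb-bs and Hbb-bt matched in 175 of 256 aligned columns (68.4%). The Alas2 promoter held every motif but the CCAAT box, and that of Bpgm held the CCAAT box alone, 3 times. These matches describe letters in a window and say nothing of binding in these tongues or of the differences between libraries.

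The alpha globins were measured first. In replicates 1 to 3 of Aim2 KO the level of Hba-a1 was 16.9, 130 and 75.0 FPKM, and in those of wild type it was 55.6, 52.9 and 42.4 FPKM. The wild type values all lay between the lowest Aim2 KO value and the other two, so the groups overlapped. The mean was 73.9 ± 56.5 FPKM (SD, n = 3) in Aim2 KO beside 50.3 ± 6.97 FPKM in wild type, with a log2 difference of 0.14 (SE 0.63, limma adjusted p = 0.9998) on the log2(FPKM + 1) scale, Aim2 KO minus wild type. Hba-a2 followed the same order in Aim2 KO at a far lower level, at 1.52, 7.80 and 5.26 FPKM against 3.45, 5.21 and 2.77 FPKM in wild type. These groups overlapped as well, and the log2 difference was also 0.14 (SE 0.43, limma adjusted p = 0.9998).

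The beta globins showed the same picture. Hbb-bs, the most abundant member in the mean over the 6 libraries, stood at 22.6, 153 and 100.4 FPKM in the Aim2 KO libraries, where wild type gave 66.8, 55.2 and 63.0 FPKM. It was the 404th most abundant gene of Aim2 KO replicate 2 and the 2644th of Aim2 KO replicate 1, and lay between ranks 966 and 1111 in wild type. The means were 92.0 ± 65.6 and 61.7 ± 5.94 FPKM (SD, n = 3 each), a log2 difference of 0.20 (SE 0.60, limma adjusted p = 0.9998). Hbb-bt, its minor partner, measured 1.64, 11.3 and 6.48 FPKM against 5.27, 2.93 and 4.65 FPKM, a log2 difference of 0.27 (SE 0.51, limma adjusted p = 0.9998). In all 4 globins, Aim2 KO replicate 1 was the lowest and replicate 2 the highest of the 6 libraries.

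**Figure D1:**
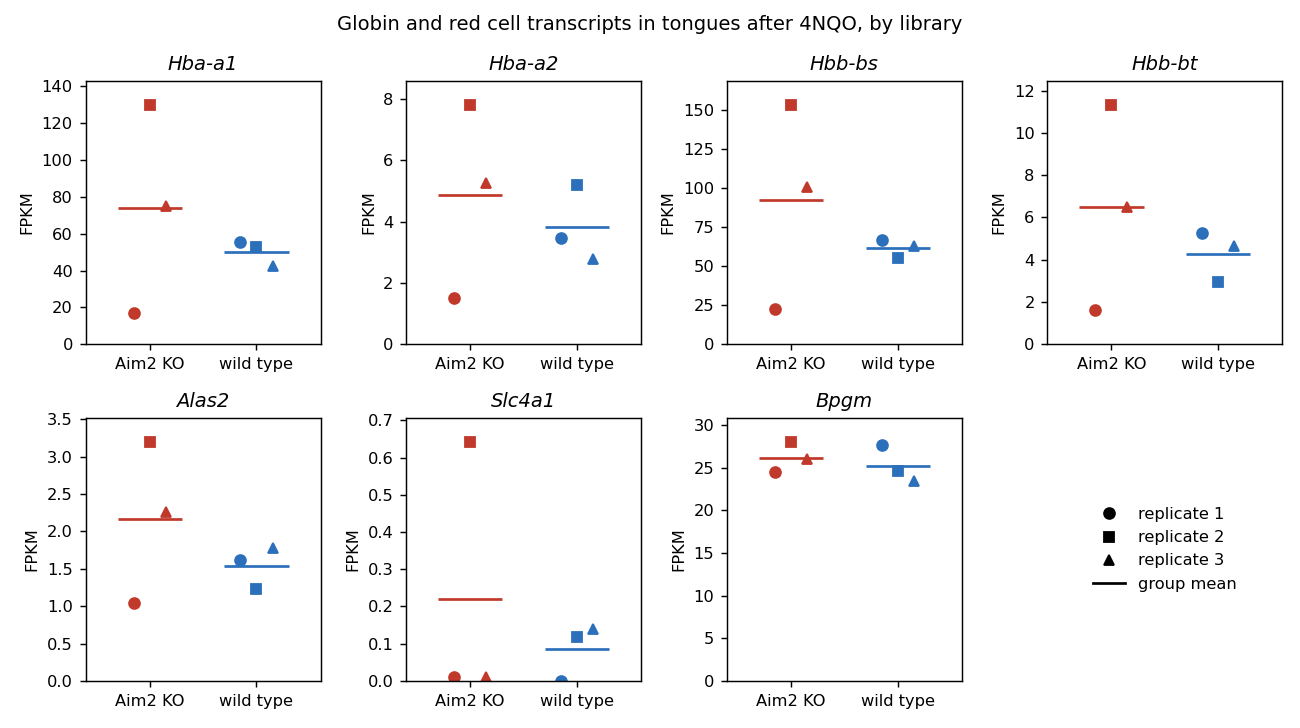
FPKM of the 7 genes (vertical axes, linear, starting at 0) in the 3 Aim2 KO (red) and 3 wild type (blue) libraries. Each point is 1 library, the symbol gives its replicate number, and lines are group means. The Aim2 KO points of the globins lie on both sides of the wild type points, and Bpgm is nearly level.

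Summed over both copies, alpha globin came to 18.4, 138 and 80.2 FPKM in the Aim2 KO libraries, against 59.0, 58.1 and 45.2 FPKM in wild type. Beta globin had 24.3, 164 and 107 FPKM against 72.1, 58.1 and 67.7 FPKM. The highest Aim2 KO library exceeded the lowest 7.48-fold for alpha and 6.77-fold for beta globin, where the wild type libraries differed at most 1.31-fold and 1.24-fold. The log2 difference between the genotypes was 0.13 for alpha globin (exact permutation test, two-sided, p = 1) and 0.20 for beta globin (exact permutation test, p = 0.9). With 3 libraries against 3 such a test cannot give a p below 0.1.

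The ratio of alpha to beta globin, which does not depend on the library total, was steadier than either level in Aim2 KO but not in wild type. It was 0.758, 0.838 and 0.751 in Aim2 KO and 0.819, 1.00 and 0.668 in wild type, so the Aim2 KO values lay within the wild type range. The means were 0.782 ± 0.0483 and 0.829 ± 0.167 (SD, n = 3 each, exact permutation test on the log2 ratio, two-sided, p = 0.8). Across a 7.07-fold range of total globin in Aim2 KO, from 42.7 to 302 FPKM, the highest ratio was 1.12 times the lowest. In wild type the ratio varied 1.499-fold, more than alpha globin (1.31-fold) or beta globin (1.24-fold).

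Within each pair the same copy was the minor one in all 6 libraries. Hba-a2 took 4.54% to 7.23% of the alpha globin reads, and Hbb-bt took 4.58% to 6.65% of the beta globin reads. The lowest and highest Hba-a2 shares were those of Aim2 KO replicate 2 (108 of 2377 reads, Wilson 95% interval 3.78% to 5.46%) and wild type replicate 2 (70 of 968 reads, 5.76% to 9.04%). The intervals of these libraries, picked as the extremes, did not overlap. The group means were 5.49% and 5.62% for Hba-a2 and 5.98% and 5.83% for Hbb-bt, Aim2 KO first (exact permutation test, two-sided, n = 3 each, p = 0.9 for both). Intervals cover counting error only.

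Alas2 (ENSMUSG00000025270; chromosome X, 150547375 to 150570638, plus strand, 11 exons) was expressed at a low level and followed the globins in Aim2 KO. It reached 1.05, 3.20 and 2.26 FPKM in Aim2 KO, on 48, 163 and 101 reads, and 1.62, 1.23 and 1.78 FPKM in wild type, on 81, 61 and 92 reads. Aim2 KO replicate 1 was again the lowest and replicate 2 the highest library. The log2 difference was 0.26 (SE 0.26, limma adjusted p = 0.9998).

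Relative to Hbb-bs, Alas2 was not constant. Its reads made up 10.8% of the Alas2 and Hbb-bs reads in Aim2 KO replicate 1 (48 of 445, Wilson 95% interval 8.23% to 14.0%) and 5.19% to 6.89% in the other 5 libraries. The library with the least globin thus held the most Alas2 per globin read, and its interval overlapped that of wild type replicate 3 (5.65% to 8.37%) alone. Group means were 7.18% and 6.13% (exact permutation test, two-sided, n = 3 each, p = 0.9).

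Slc4a1 (ENSMUSG00000006574; chromosome 11, 102348824 to 102366203, minus strand, 20 exons) did not follow the globins. Its level was 0.00976, 0.643 and 0.01002 FPKM in Aim2 KO, on 1, 73 and 1 reads, and 0, 0.118 and 0.139 FPKM in wild type, on 0, 13 and 16 reads. For the wild type library at 0, a count of 0 allows up to 3 reads, or 0.0269 FPKM. Most of its reads in the series came from Aim2 KO replicate 2. Aim2 KO replicate 3, which had the second highest globin level, gave 1 Slc4a1 read beside 1715 Hbb-bs reads, while wild type replicate 3 gave 16 beside 1244. As a share of Slc4a1 and Hbb-bs reads these are 0.0583% (Wilson 95% interval 0.0103% to 0.329%) and 1.27% (0.783% to 2.05%), against 2.40% (1.91% to 3.00%) in Aim2 KO replicate 2. The interval of Aim2 KO replicate 3 lay below those of both wild type libraries with Slc4a1 reads and of Aim2 KO replicate 2. Slc4a1 lay below the mean of 1 FPKM required for testing, so 6 of the 7 members were tested.

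Reads of a pair of genes that neutrophils make while they mature in the marrow came mostly from the same library. Ngp, a neutrophil granule protein gene, gave 125 reads in Aim2 KO replicate 2 and 0 in the other 5 libraries, and Camp, which encodes a cathelicidin, gave 60 reads there and 0 to 3 elsewhere. Both genes were chosen after their values were seen. Over the whole neutrophil list of 10 genes, which S100a8 and S100a9 dominate, the summed level went the other way in that library. It was 1151 FPKM in Aim2 KO replicate 2, below the 2350 to 3533 FPKM of wild type, and 6835 and 814 FPKM in Aim2 KO replicates 1 and 3. The mean log2 level of the same list, which weighs each gene alike, did not go the other way. It was 3.19 in Aim2 KO replicate 2, above the 2.78 to 3.00 of wild type, and 3.32 and 2.33 in Aim2 KO replicates 1 and 3. S100a8 alone had 468 FPKM in Aim2 KO replicate 2 and 1057 to 1575 FPKM in wild type, and none of the 10 was at 0 in all libraries. Ltf, also on the list, was not highest in that library. It had 43.4, 39.8 and 22.5 FPKM in Aim2 KO and 31.3, 43.5 and 28.9 FPKM in wild type. Retnlg and Mmp8 were highest in Aim2 KO replicate 2, on 28 and 19 reads. The part of neutrophils in the Slc4a1 level was not tested.

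**Figure D2:**
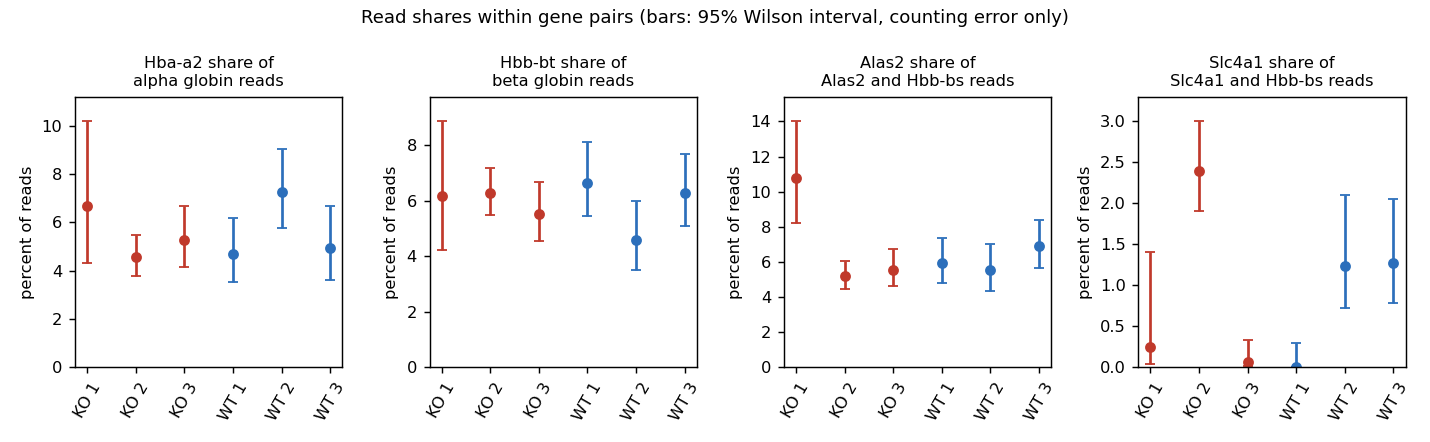
Percent of reads within 4 gene pairs (vertical axes, starting at 0) for each library, Aim2 KO in red and wild type in blue, with 95% Wilson intervals as bars. The shares of Hba-a2 and Hbb-bt stay within 4.54% to 7.23%, Alas2 is highest in Aim2 KO replicate 1, and Slc4a1 runs from 0 to 2.40%.

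Bpgm (ENSMUSG00000038871; chromosome 6, 34476207 to 34505613, plus strand, 3 exons) was the steadiest member. Its values were 24.5, 28.1 and 26.0 FPKM in the Aim2 KO libraries and 27.7, 24.7 and 23.4 FPKM in wild type, a range of 1.15-fold within Aim2 KO and 1.18-fold within wild type. The means were 26.2 ± 1.79 and 25.3 ± 2.20 FPKM (SD, n = 3 each), and the log2 difference was 0.05 (SE 0.11, limma adjusted p = 0.9998). Its level per length exceeded that of Hba-a1 and Hbb-bs in Aim2 KO replicate 1 and was below both in every other library. In the order of mean FPKM over all libraries, Hbb-bs (76.8) and Hba-a1 (62.1) came first, then Bpgm (25.7), Hbb-bt (5.38), Hba-a2 (4.34), Alas2 (1.86) and Slc4a1 (0.153). In wild type, where the spread was small, the ranges of Hbb-bs (55.2 to 66.8) and Hba-a1 (42.4 to 55.6) met at their edges, and those of Hbb-bt and Hba-a2 overlapped almost wholly.

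Between the genotypes, 0 of the 6 tested members passed the threshold (limma adjusted p under 0.05), and 0 had an unadjusted p under 0.05, with limma on log2 values and with voom on the recovered reads alike. Among all 12144 genes tested 1 passed (0.00823%), and 304 had an unadjusted p under 0.05 (2.50%). None of the 6 had groups that did not overlap, as 785 of all genes had (6.46%), 605 of them higher (4.98%) and 180 lower (1.48%) in Aim2 KO. Their log2 differences were all above 0, with a median of 0.17, where the median of all genes was 0.02 and the 95th percentile was 0.26. Of all genes tested, 6951 (57.2%) were above 0, which is the background for this and the later counts of differences above 0. Together the 7 members took 0.00880%, 0.0294% and 0.0200% of the reads in Aim2 KO and 0.0161%, 0.0143% and 0.0140% in wild type (exact permutation test on the log2 share, two-sided, n = 3 each, p = 0.7). Bpgm supplied 1226 of the 1983 member reads in Aim2 KO replicate 1 and 1557 of 7344 in replicate 2. The share varied 3.34-fold within Aim2 KO, where total globin varied 7.07-fold.

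The sign of the globin differences rested on single libraries, mainly those of Aim2 KO. Without Aim2 KO replicate 2 all 4 turned negative, from -0.47 for Hba-a1 to -0.22 for Hbb-bt. Without Aim2 KO replicate 3, Hba-a1 was at -0.075 and Hbb-bs at -0.051, and without wild type replicate 3 Hba-a2 was at -0.021. Without Aim2 KO replicate 1 the differences rose to 0.97 for Hba-a1, 0.66 for Hba-a2, 1.00 for Hbb-bs and 0.89 for Hbb-bt, where the smallest limma adjusted p was 0.0916, for Hbb-bs. In that fit the limma unadjusted p of the 4 globins ran from 0.00052 (Hbb-bs) to 0.0199 (Hba-a2). Among all 12144 genes, 642 were higher and 189 lower there at an unadjusted p under 0.05. Alas2 stayed positive, between 0.027 and 0.55, and Bpgm between 0.0013 and 0.12, in each fit that left out a library.

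**Figure D3:**
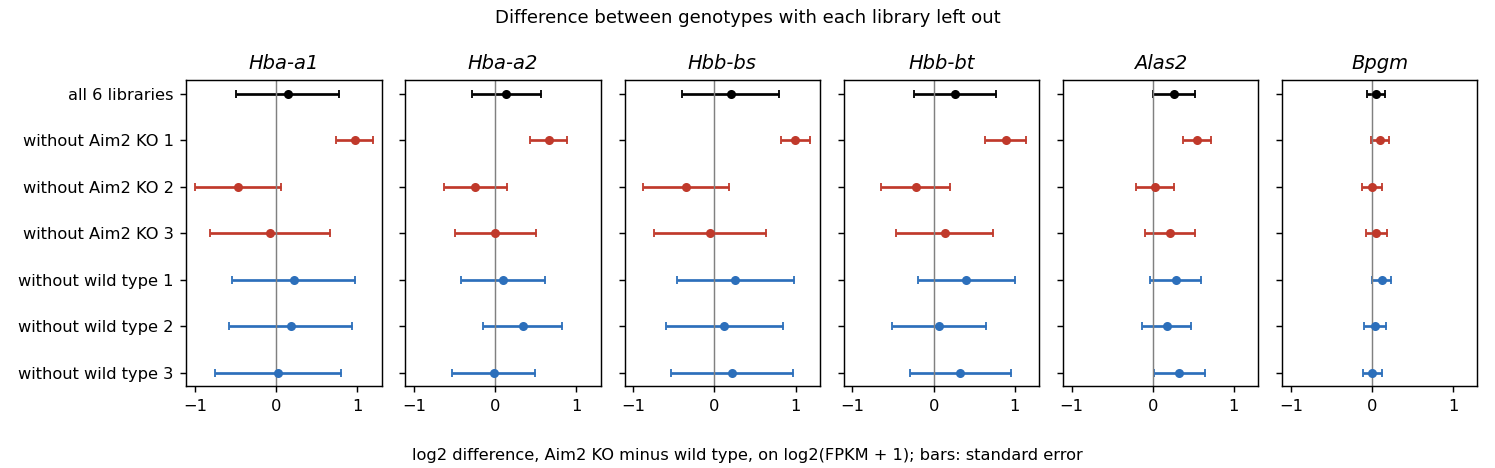
Log2 difference between Aim2 KO and wild type on log2(FPKM + 1) (horizontal axes) for the 6 tested members, with all 6 libraries (black) and without each library in turn (red for an Aim2 KO, blue for a wild type library left out). Bars are standard errors from limma. The 4 globins lie below 0 without Aim2 KO replicate 2 and between 0.66 (Hba-a2) and 1.00 (Hbb-bs) without Aim2 KO replicate 1, and Bpgm stays near 0.

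The variation of the globins was set beside that of vessels and tissue types. Total globin was lowest in Aim2 KO replicate 1 (42.7 FPKM), between 113 and 131 FPKM in wild type, and highest in Aim2 KO replicates 3 (187 FPKM) and 2 (302 FPKM). The mean log2 level of the 16 endothelial genes was 1.82, 2.99 and 2.72 in Aim2 KO and 2.24, 2.75 and 2.40 in wild type, so the lowest and the highest library were the same ones. Over the 6 libraries total globin and the endothelial level had a Pearson r of 0.90 (exact permutation test, p = 0.0208, adjusted over 8 relations p = 0.0556) and a Spearman rho of 0.71 (exact p = 0.136, adjusted p = 0.233). Without Aim2 KO replicates 1 and 2, the libraries farthest from the median, r was 0.35, so the relation rested on those 2 libraries. The pericyte and vascular smooth muscle level gave an r of 0.88 (exact permutation p = 0.0181, adjusted p = 0.0556) with a rho of 0.83 (exact p = 0.0583, adjusted p = 0.156), and 0.34 without the same 2 libraries.

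The other levels were set beside total globin in the same way. Alas2 had an r of 0.91 (exact permutation p = 0.0181, adjusted p = 0.0556) with a rho of 0.83 (exact p = 0.0583, adjusted p = 0.156). Over the 4 libraries left without Aim2 KO replicates 1 and 2 its r was 0.79. These 4 are Aim2 KO replicate 3 and the wild type libraries, so an r over them cannot be told apart from a difference between genotypes. Bpgm had an r of 0.64 (exact permutation p = 0.174, adjusted p = 0.231) and a rho of 0.89 (exact p = 0.0333, adjusted p = 0.156), and an r of 0.49 without those 2. Slc4a1 had an r of 0.65 (exact permutation p = 0.243, adjusted p = 0.278) and a rho of 0.31 (exact p = 0.564, adjusted p = 0.564), which turned to an r of -0.74 without them. Skeletal muscle had an r of 0.84 (exact p = 0.0569, adjusted p = 0.114; rho 0.66, exact p = 0.175, adjusted p = 0.233) and squamous epithelium one of -0.75 (exact p = 0.0806, adjusted p = 0.129; rho -0.66, exact p = 0.175, adjusted p = 0.233). Without the 2 libraries these were 0.07 and -0.08. The pan-leukocyte level, which was higher in all 3 Aim2 KO libraries than in wild type, had an r of 0.26 (exact p = 0.607, adjusted p = 0.607) and a rho of 0.43 (exact p = 0.419, adjusted p = 0.479), with an r of 0.94 over the 4 remaining libraries. None of the 8 relations passed after adjustment. All levels share the library total as divisor, and 3 libraries a genotype are too few to report an r within one. Within Aim2 KO, total globin and the endothelial level had the same order of libraries. Within wild type they did not: replicate 1 had the highest globin (131 FPKM) and the lowest endothelial level (2.24), and replicate 2 had 116 FPKM and the highest (2.75). Alas2 did not keep the globin order within wild type either: it was highest (1.78 FPKM) in replicate 3, which had the least globin (113 FPKM).

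**Figure D4:**
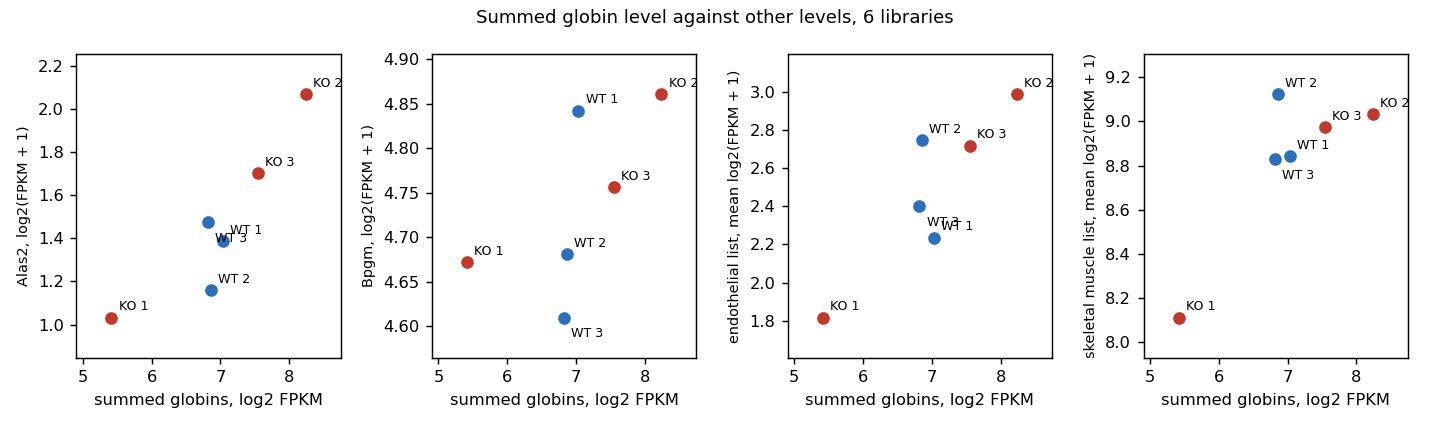
Log2 of the summed FPKM of the 4 globins (horizontal axes) against Alas2, Bpgm and the mean levels of the endothelial and skeletal muscle lists (vertical axes, log2(FPKM + 1)), 1 point per library, Aim2 KO in red and wild type in blue. Aim2 KO replicate 1 is at the low end and replicate 2 at the high end of the globin axis in each panel.

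With the endothelial level as a covariate, an alternative chosen after seeing the data, the globin differences between genotypes were 0.05 for Hba-a1, 0.07 for Hba-a2, 0.11 for Hbb-bs and 0.21 for Hbb-bt. With the skeletal muscle level as a covariate they were 0.73, 0.54, 0.74 and 0.66 in the same order, and none passed (limma adjusted p from 0.242 to 0.766). The limma unadjusted p in the muscle fit ran from 0.00423 (Hba-a2) to 0.0753 (Hbb-bt). Among all 12144 genes, 644 were higher and 243 lower in that fit at an unadjusted p under 0.05. Aim2 KO replicate 1 had the lowest level of both lists, and the part of that library in these values was not tested beyond leaving it out.

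**Figure D5:**
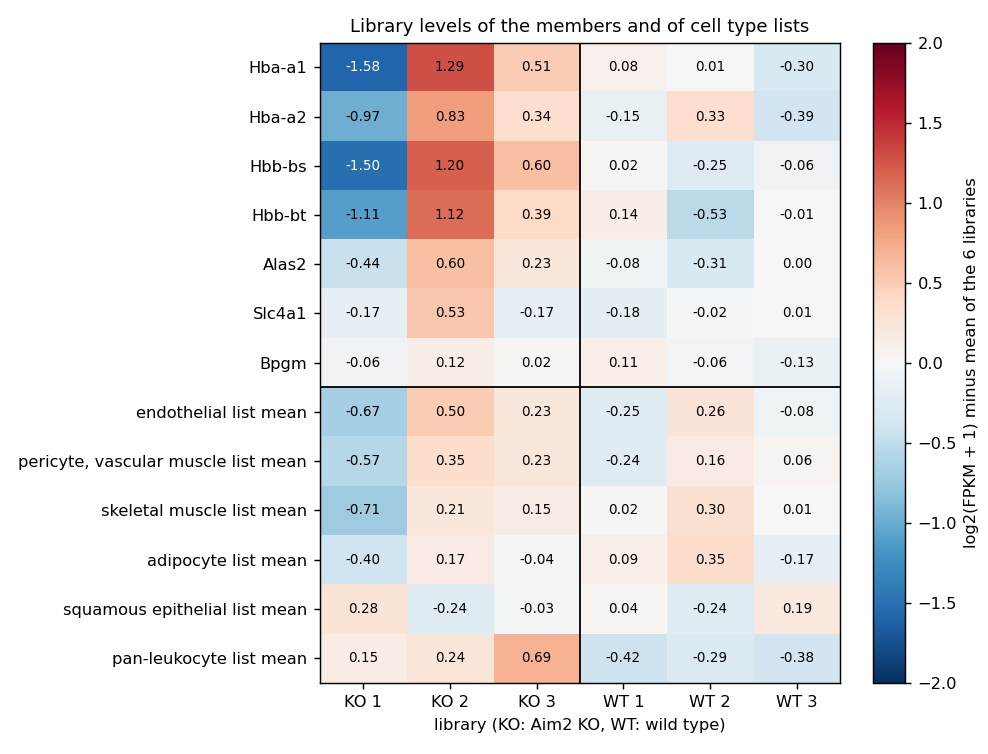
Level of each member and mean level of 6 cell type lists in each library, as log2(FPKM + 1) minus the mean of the 6 libraries (colour and printed number). Aim2 KO replicate 1 is low for the globins, vessel, muscle and adipocyte lists and high for the squamous list, and Aim2 KO replicate 2 is high for the globins and vessel lists.

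The genes whose log2(FPKM + 1) came closest to total globin over the 6 libraries, among the 12138 other genes tested, were Manea, Leprot, Ecm2, S100b, Abca8b and Clec14a, with Pearson r from 0.992 to 0.995. Clec14a, a membrane lectin of endothelial cells, gave 1.56, 4.83 and 3.56 FPKM in Aim2 KO beside 3.01, 2.61 and 2.60 FPKM in wild type. S100b, a calcium-binding protein of glial and some other cells, gave 0.718, 3.99 and 3.07 FPKM beside 2.03, 1.86 and 1.73 FPKM. With 12138 genes ranked over 6 libraries, 168 had an r of at least 0.95 and 35 an r of at most -0.95, so the ranking is a description and carries no p.

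Other genes of the red cell were sparse or shared with other tissues of the tongue. Of the other globins, Hbb-y, Hbb-bh0, Hbb-bh1, Hbb-bh2 and Hbq1a had 0 reads in all 6 libraries, which allows up to 3 reads in each, and Hba-x and Hbq1b had at most 1 and 3 reads. Most of these are embryonic globins. Mb, which encodes myoglobin of muscle, averaged 2308 ± 713 FPKM (SD, n = 3 here and below) in Aim2 KO beside 2507 ± 397 FPKM in wild type, far above all haemoglobin genes per length, with a log2 difference of -0.16. Cygb, the cytoglobin of fibroblasts and related cells, had 7.74 ± 3.81 and 6.86 ± 2.52 FPKM. Neither passed (limma adjusted p = 0.9998 for both).

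Haem synthesis runs in every cell, and all 8 of its listed enzymes were tested. Their log2 differences had a median of 0.06, and 6 of 8 were above 0. Cpox, coproporphyrinogen oxidase, averaged 21.9 ± 0.773 FPKM in Aim2 KO beside 20.7 ± 2.02 FPKM in wild type. Alas1, the form of Alas2 that other tissues use, named outside the rule, had 61.4 ± 15.6 and 57.7 ± 6.22 FPKM and was thus far more abundant per length than Alas2. In Aim2 KO replicate 1, where Alas2 was lowest, Alas1 was highest, at 79.4 FPKM.

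Of 16 red cell membrane genes 5 were tested, with a median log2 difference of -0.01 and 2 of 5 above 0. Sptb, a spectrin that muscle also uses, had 8.50 ± 3.06 and 9.72 ± 1.86 FPKM, and Gypc, a membrane sialoglycoprotein that other tissues make too, had 5.68 ± 2.73 and 5.15 ± 0.990 FPKM. Icam4, a red cell adhesion protein, had 0 reads throughout, which allows up to 3 reads in each library. Of the 8 erythroid transcription factors Lmo2, Ldb1 and Zfpm1 were tested, all 3 of which act in other cells too, with differences from -0.13 to -0.02. Klf1 and Gata1, which drive red cell formation, had 3 to 21 and 0 to 8 reads a library. Red cell RNA was thus seen here mainly as globin and Alas2 reads, while Bpgm kept its level in the library where they were lowest.

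Of 15 erythroblast and reticulocyte genes 14 were matched and 7 tested, with a median log2 difference of 0.09 and 5 of 7 above 0. Slc25a38, a mitochondrial glycine carrier needed for haem, had 8.85 ± 1.33 and 10.1 ± 0.688 FPKM, and Tfrc, the transferrin receptor, had 24.9 ± 3.27 and 22.6 ± 1.72 FPKM. Of 10 genes that dispose of haemoglobin, haem and iron 9 were tested, with a median of -0.03 and 3 of 9 above 0. Blvrb, biliverdin reductase B, had 117 ± 26.3 and 98.1 ± 21.4 FPKM, and Hmox1, the enzyme that opens the haem ring, had 64.8 ± 15.4 and 59.3 ± 14.6 FPKM. Of 10 glycolytic genes next to Bpgm 9 were tested, with a median of 0.01. Hk1, hexokinase 1, had 44.3 ± 7.98 and 38.4 ± 1.71 FPKM, and Pgam2, the phosphoglycerate mutase of muscle, had 309 ± 126 and 357 ± 57.6 FPKM. In these 7 lists together 43 genes were tested, and 0 passed or had an unadjusted p under 0.05 with limma or with voom.

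Platelets enter a tissue with the blood as red cells do. Of 11 platelet genes 4 were tested, all with differences above 0 (median 0.16), and none of the 4 passed. Pf4, a platelet chemokine, was at 2.20, 11.7 and 5.44 FPKM in Aim2 KO and at 2.99, 6.05 and 5.99 FPKM in wild type, so that it too was lowest in Aim2 KO replicate 1 and highest in replicate 2. Ppbp, another platelet chemokine, had 5.09, 2.11 and 3.16 FPKM against 2.94, 0.381 and 3.21 FPKM and was highest in Aim2 KO replicate 1. The summed level of the list was 17.4 to 22.4 FPKM in Aim2 KO and 14.3 to 16.7 FPKM in wild type, and Gp6 was at 0 throughout. In the mean log2 level of the list the groups overlapped, at 0.861 in Aim2 KO replicate 1 beside 0.879 in wild type replicate 3. An exact permutation test of that level gave p = 0.2 (two-sided, n = 3 each), and the sum was not tested. In the 8 cell type lists together 62 genes were tested and 0 passed with limma or voom, with 9 and 8 of them, respectively, at an unadjusted p under 0.05. Of these, 8 by each tool were pan-leukocyte genes.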

How the data were processed

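Tongue RNA was prepared with a column kit and sent to a company for library construction, per the labels' protocols. The values deposited by the authors are FPKM per gene, 1 column per library. How reads were aligned and counted, and on which build, is not given in the sources used here. GENCODE M21 holds 34490 of the IDs, 72.3% at identical coordinates, including all 7 members. Multiplied by gene length, the FPKM values fell on whole steps in each library (100% of values above 0, tolerance 0.01 read), which gave back the reads. They total 21959204 to 25369400 a library, so low genes rest on few reads.

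Genotypes, taken from the labels, were compared on log2(FPKM + 1) by limma 3.58.1 in R 4.3.3 (eBayes with trend, two-sided). The 12144 genes whose mean reached 1 FPKM entered, p-values were adjusted after Benjamini and Hochberg, and 0.05 was the threshold. Sums, ratios and shares went through exact permutation tests over libraries in Python 3.11.15. Epb41 and Epb42 were matched by gene ID, and Ahsp, Hbb-b1 and Hbb-b2 were not matched. No promoter entry was used for Slc4a1. Some list members are not reported here.

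Named were all members, the 6 genes most like total globin, and up to 4 tested genes a list by smallest p. Genes near 0, Alas1, Clec14a and S100b were picked for description with values known. Members and lists were chosen with earlier results of these data known. Alternatives covered pseudocount, filter, scaling, trend, weights, covariates, replicate block, voom and leaving out each library.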

Additional observations from a re-analysis of the deposited data

How the results depend on the processing

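None of the 6 tested members passed the threshold under any of the 20 settings run, the one reported included, and the smallest adjusted p was 0.0916 (Hbb-bs without Aim2 KO replicate 1). With all 6 libraries, every setting kept the sign of the 6 members. Array quality weights moved the log2 difference to 0.56 for Hba-a1, 0.42 for Hba-a2, 0.67 for Hbb-bs (limma unadjusted p = 0.0473, adjusted p = 0.365), 0.53 for Hbb-bt and 0.38 for Alas2 (unadjusted p = 0.0360, adjusted p = 0.343). Leaving out each library moved the log2 difference from -0.47 to 0.97 for Hba-a1, -0.24 to 0.66 for Hba-a2, -0.35 to 1.00 for Hbb-bs and -0.22 to 0.89 for Hbb-bt. It moved alpha globin from -0.48 to 0.97, beta globin from -0.37 to 1.01, the log2 ratio of alpha to beta from -0.21 to 0.080 (above 0 without wild type replicate 2) and the log2 share of member reads from -0.15 to 0.72. The count of genes past the threshold, 1 of 12144, was 0 without an expression filter, with a filter at 0.1 FPKM and after rescaling to TPM, 68 with array quality weights, 33 with the skeletal muscle covariate, and 0 to 14 when a library was left out (14 without Aim2 KO replicate 1). The cause was not tested. Same-numbered libraries had correlations of their deviations of 0.35, 0.46 and 0.03, and differently numbered ones ran from -0.46 to 0.21. The main fit did not pair libraries by number, and whether they are paired is not known. With the replicate block the count was 0, and 0 members passed. Slc4a1 had a log2 difference of 0.13 without a filter. Read numbers limit Slc4a1, Alas2, Hba-a2 and Hbb-bt most.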
